A study of Arabidopsis thaliana with 6 samples.

Results

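Flavonols are the phenolic metabolites that Arabidopsis roots make from phenylalanine, and the genes described here encode 10 steps or helpers of that route. They are *CHS*, *CHI*, *CHIL*, *F3H*, *F3'H*, *FLS1*, *DFR*, *LDOX*, *UGT78D1* and *UGT78D2*, chosen by their known place in the pathway after the genotype difference measured in these same libraries had been seen. Their genotype differences are therefore a description: values and counts past a threshold are given, and no test of them is used as support. The 10 genes were taken by locus from 33560 genes listed, and 7 of them averaged 1 FPKM or more over the 6 libraries (fragments scaled by transcript length and by the mapped fragments of the library).

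Flavonol synthesis begins when chalcone synthase joins a phenylpropanoid CoA ester with malonyl-CoA units. Chalcone isomerase closes the ring, dioxygenases and a cytochrome P450 then modify it, and glycosyltransferases add sugars to the finished flavonol. In seedlings the early enzymes are known targets of a small group of MYB factors, *MYB12* being the best known of them in roots, and flavonols are known as modulators of auxin transport and of reactive oxygen species in this organ.

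The libraries come from about 2 mm of root tip of 5-day-old seedlings, grown on 1% sucrose with 16 h of light and 8 h of dark. There were 3 biological replicates of Columbia-0 (the wild type) and 3 of *bron-2*, a T-DNA insertion line of *BRON* (AT1G75710, BRONTOSAURUS), a C2H2-like transcription factor gene. Both genotypes had the same growth and no other treatment or allele, and *bron-2* is represented by a single insertion line without a complemented line among these libraries. The comparison asks which transcripts depend on *BRON* in the root tip.

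*BRON* was at 17.9, 16.1 and 17.3 FPKM across wild type replicates 1 to 3 and at 1.25, 0.925 and 1.1 FPKM across *bron-2* replicates 1 to 3. The difference on the log2(FPKM + 1) scale was -3.12 (standard error 0.11, limma's Benjamini-Hochberg adjusted p = 7.91e-05), so the labels and the targeted gene go together. The FPKM of a library summed to between 791546 and 812383. Read numbers are not known from FPKM, but the steps between the lowest values place the wild type libraries at a relative depth of 0.973 to 1.11 and the *bron-2* libraries at 1.20 to 1.25, with wild type replicate 1 set to 1. In whole root tips, fewer cells of a type and less RNA per cell cannot be told apart.

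The promoters are shown first because most of these genes varied together over the libraries. In the 250 bases before each annotated gene start (TAIR10.1, gene strand), 4 motifs were searched on both strands: the AC elements ACCTACC (AC-I), ACCAACC (AC-II) and ACCTAAC (AC-III), letters known as binding sequences of flavonoid MYB factors, and the G-box CACGTG, known as a site of bZIP factors such as *HY5*. None of these 4 words contains another. A match is a description of the letters, not a site shown to be bound. Of 27443 promoters of this length, 1.16% held AC-I, 2.69% AC-II, 2.46% AC-III and 6.49% the G-box.

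Of the 10 promoters, 4 held a G-box (*CHS*, *CHIL*, *F3H* and *DFR*), 1 held AC-III (*CHIL*, on the opposite strand) and 0 held AC-I or AC-II. *CHIL* was the only promoter of the 10 with both an AC element and a G-box, a combination present in 0.466% of all promoters. The sequences below run 5′ to 3′ and end at the base before the gene start. Capitals mark the motif matches. The promoters of *CHS* (chr5:4488226-4488475, plus strand), *CHIL* (chr5:1563036-1563285, plus strand) and *F3H* (chr3:19024942-19025191, plus strand) are printed for their G-boxes, and that of *FLS1* (chr5:2803583-2803832, plus strand) as a member of the pathway core without any of the 4 motifs.
CHS: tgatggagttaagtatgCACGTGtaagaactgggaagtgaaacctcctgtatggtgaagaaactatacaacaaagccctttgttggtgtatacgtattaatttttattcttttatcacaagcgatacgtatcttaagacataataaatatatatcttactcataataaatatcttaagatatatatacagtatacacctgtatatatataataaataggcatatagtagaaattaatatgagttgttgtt
CHIL: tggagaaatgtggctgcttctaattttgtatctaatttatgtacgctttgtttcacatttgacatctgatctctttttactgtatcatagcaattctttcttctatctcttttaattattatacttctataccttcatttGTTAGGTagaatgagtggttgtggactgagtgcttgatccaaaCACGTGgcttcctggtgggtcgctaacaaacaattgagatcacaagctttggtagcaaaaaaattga
F3H: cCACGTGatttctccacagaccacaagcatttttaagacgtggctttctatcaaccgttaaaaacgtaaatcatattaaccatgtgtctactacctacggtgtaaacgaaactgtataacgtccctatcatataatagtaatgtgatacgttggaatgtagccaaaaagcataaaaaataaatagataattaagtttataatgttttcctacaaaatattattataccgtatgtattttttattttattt
FLS1: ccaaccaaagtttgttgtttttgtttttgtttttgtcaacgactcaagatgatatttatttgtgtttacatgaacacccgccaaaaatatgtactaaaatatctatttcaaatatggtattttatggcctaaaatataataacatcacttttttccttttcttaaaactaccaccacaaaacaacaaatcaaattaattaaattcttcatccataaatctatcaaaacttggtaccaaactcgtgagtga

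AC-I was present in the promoters of *4CL3* (chr1:24171636-24171885, minus strand), which encodes a 4-coumarate CoA ligase, and of *UGT89C1* (chr1:1821895-1822144, minus strand), which encodes a flavonol rhamnosyltransferase. These are not among the 10 genes, and both are described later because their levels followed the same pattern. *RHM1*, described later with that pattern as well, held none of the 4 motifs in its promoter. The *4CL3* promoter held AC-I at -120 to -114 and at -68 to -62, and the *UGT89C1* promoter held it at -193 to -187. In the lists of entry enzymes, other enzymes and regulators described below, AC-I also stood before *UGT78D3*, listed at or near 0 in these libraries, and before *FLS5*, a flavonol synthase paralog with a log2 difference of 0.26 (limma's adjusted p = 0.552). An AC element and a G-box both stood before *SCPL10* (log2 difference 0.01) and before *MYB114*, listed at 0. Other matches in these lists included AC-II before *4CL2* (-0.07), AC-III before *LBD38* (-0.33), and G-boxes before *PAL4* (0.20) and *MYB12* (0.11). Matches thus also stood before genes with little or no difference.
4CL3: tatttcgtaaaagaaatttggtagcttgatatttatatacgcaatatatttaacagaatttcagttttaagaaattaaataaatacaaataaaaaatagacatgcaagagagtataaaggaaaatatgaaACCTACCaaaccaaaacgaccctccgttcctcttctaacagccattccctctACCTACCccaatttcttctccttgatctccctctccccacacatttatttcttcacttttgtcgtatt
UGT89C1: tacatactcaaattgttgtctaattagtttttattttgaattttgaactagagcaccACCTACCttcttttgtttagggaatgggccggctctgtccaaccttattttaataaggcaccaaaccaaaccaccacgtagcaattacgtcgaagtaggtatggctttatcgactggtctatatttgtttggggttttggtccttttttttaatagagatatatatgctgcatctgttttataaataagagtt

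**Figure D1:**
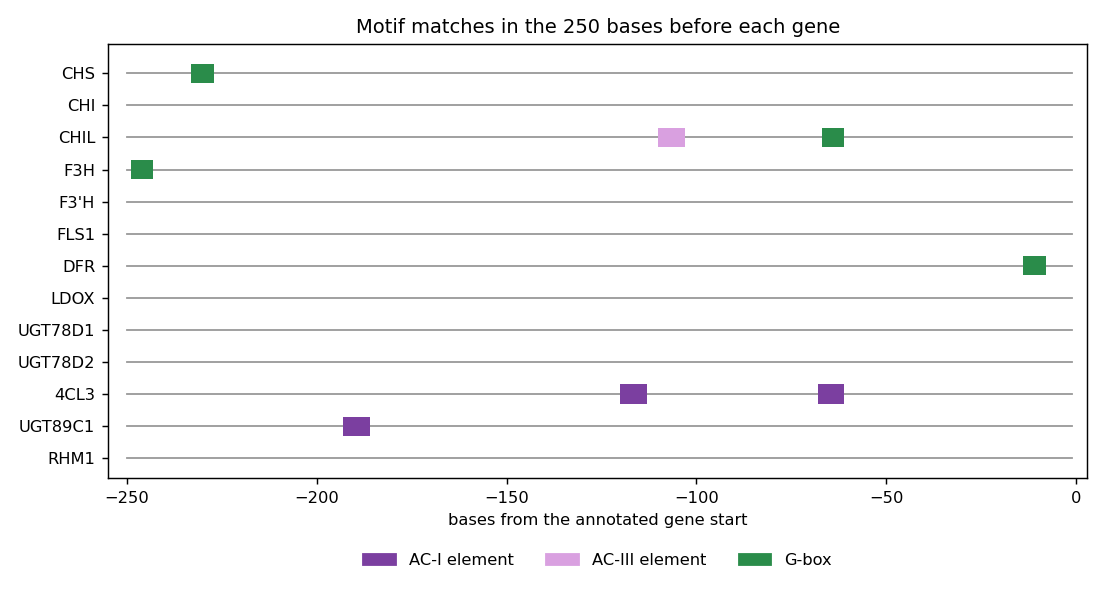
Positions of motif matches in the 250 bases before the annotated start of 13 genes, with the x axis in bases from the start and 1 row per gene. *CHIL* carries AC-III and a G-box, *CHS*, *F3H* and *DFR* carry a G-box, *4CL3* carries AC-I at both -120 to -114 and -68 to -62, and *UGT89C1* carries AC-I at -193 to -187. The rows of *CHI*, *F3'H*, *FLS1*, *LDOX*, *UGT78D1*, *UGT78D2* and *RHM1* are empty.

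The 10 genes span the range from very abundant to listed at 0. *CHS* ranked 90 of 17107 tested genes by mean FPKM, and between 56 and 251 in the single libraries. The order of levels per length was *CHS*, *F3H*, *FLS1*, *CHIL* and *CHI* in 6 of 6 libraries, followed by *F3'H* and *UGT78D2*, of which *F3'H* was the higher in 2 of 6. *F3H* and *FLS1* were close, with wild type means 12.6 FPKM apart and standard deviations of 77.6 and 84.9 FPKM. *UGT78D1*, *DFR* and *LDOX* had a mean under 1 FPKM and were not tested.

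*CHS* (AT5G13930, chr5:4488476-4490264, plus strand), which encodes chalcone synthase, was at 1249, 1192 and 774 FPKM across wild type replicates 1 to 3 and at 795, 693 and 485 FPKM across *bron-2* replicates 1 to 3. The highest *bron-2* library lay just above the lowest wild type library. The means were 1072 ± 259 FPKM (SD, n = 3) for the wild type and 658 ± 158 FPKM (SD, n = 3) for the mutant, or 61.4% of the wild type and a log2 difference of -0.70 (standard error 0.23). An overlapping gene on the other strand, AT5G13940, was listed at no more than 0.0474 FPKM.

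*CHI* (AT3G55120, chr3:20430059-20431597, minus strand) encodes chalcone isomerase. It was at 135, 110 and 61.4 FPKM across the wild type libraries and at 54.8, 34.4 and 22.1 FPKM across those of *bron-2*, in the order of replicates 1, 2 and 3. *CHI* was the only tested gene of the 10 whose *bron-2* libraries all lay below the wild type libraries. Its log2 difference of -1.46 (standard error 0.37) was the largest of the tested genes in size, and its *bron-2* mean of 37.1 ± 16.5 FPKM (SD, n = 3) was 36.3% of the wild type mean of 102 ± 37.6 FPKM (SD, n = 3).

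*CHIL* (AT5G05270, chr5:1563286-1565324, plus strand) encodes a chalcone isomerase-like protein, which is known to bind chalcone synthase and to raise the yield of the pathway without isomerase activity of its own. Its levels were 162, 118 and 73.0 FPKM across wild type replicates 1 to 3 and 79.2, 49.3 and 32.8 FPKM across *bron-2* replicates 1 to 3. Only *bron-2* replicate 1 reached the wild type range. The *bron-2* mean was 45.7% of the wild type mean, with a log2 difference of -1.13 (standard error 0.36).

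*F3H* (AT3G51240, chr3:19025192-19026872, plus strand) encodes flavanone 3-hydroxylase, which makes dihydroflavonols. It was at 268, 199 and 112.6 FPKM across wild type replicates 1 to 3 and at 134, 89.0 and 64.8 FPKM across *bron-2* replicates 1 to 3. The groups overlapped through *bron-2* replicate 1 and wild type replicate 3, the *bron-2* mean was 49.7% of the wild type mean, and the log2 difference was -0.98 (standard error 0.35). A lncRNA gene on the other strand, AT3G51238, was listed at no more than 0.244 FPKM.

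*F3'H* (AT5G07990, chr5:2560328-2563137, plus strand) encodes the cytochrome P450 that adds the hydroxyl group by which quercetin differs from kaempferol. Its levels were 42.6, 26.6 and 11.3 FPKM across wild type replicates 1 to 3 and 14.4, 9.29 and 8.10 FPKM across *bron-2* replicates 1 to 3. Wild type replicate 1 stood well above the other 5 libraries. The *bron-2* mean was 39.5% of the wild type mean, with a log2 difference of -1.12 (standard error 0.43). Without wild type replicate 1 the difference was -0.70.

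*FLS1* (AT5G08640, chr5:2803833-2805606, plus strand) encodes flavonol synthase, which converts dihydroflavonols to flavonols. It was at 255, 197 and 88.2 FPKM across wild type replicates 1 to 3 and at 98.9, 59.7 and 44.2 FPKM across *bron-2* replicates 1 to 3. The lowest wild type library again lay below the highest *bron-2* library. The *bron-2* mean was 37.5% of the wild type mean, and the log2 difference was -1.35 (standard error 0.41).

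*DFR* (AT5G42800) and *LDOX* (AT4G22880) encode dihydroflavonol reductase and leucoanthocyanidin dioxygenase, which lead from dihydroflavonols to anthocyanins and proanthocyanidins. *DFR* was listed at 0.0802 FPKM in wild type replicate 3, at 0.0731 FPKM in *bron-2* replicate 3 and at 0 in the other libraries. *LDOX* was listed at 0 in 6 of 6 libraries. Both genes were thus at or near the bottom of the scale in both genotypes.

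*UGT78D2* (AT5G17050, chr5:5607788-5609589, minus strand) encodes a flavonoid 3-O-glucosyltransferase. It was at 39.9, 25.2 and 13.9 FPKM across wild type replicates 1 to 3 and at 14.6, 14.8 and 12.8 FPKM across *bron-2* replicates 1 to 3. The wild type libraries were spread widely and the *bron-2* libraries were close together, with *bron-2* replicates 1 and 2 above wild type replicate 3. The *bron-2* mean was 53.3% of the wild type mean, and the log2 difference was -0.75 (standard error 0.32). The difference was -0.40 without wild type replicate 1 and -1.12 without wild type replicate 3.

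*UGT78D1* (AT1G30530, chr1:10814612-10816615, plus strand) encodes a flavonol 3-O-rhamnosyltransferase and was listed far lower than its paralog. Its levels were 1.83, 1.69 and 0.706 FPKM across wild type replicates 1 to 3 and 0.937, 0.109 and 0.204 FPKM across *bron-2* replicates 1 to 3. The groups overlapped, and the *bron-2* mean was 29.6% of the wild type mean, a ratio that rests on values near the bottom of the scale. How reads that match paralogs were assigned is not given in the sources used here, so the split between the UGT78D genes is uncertain.

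**Figure D2:**
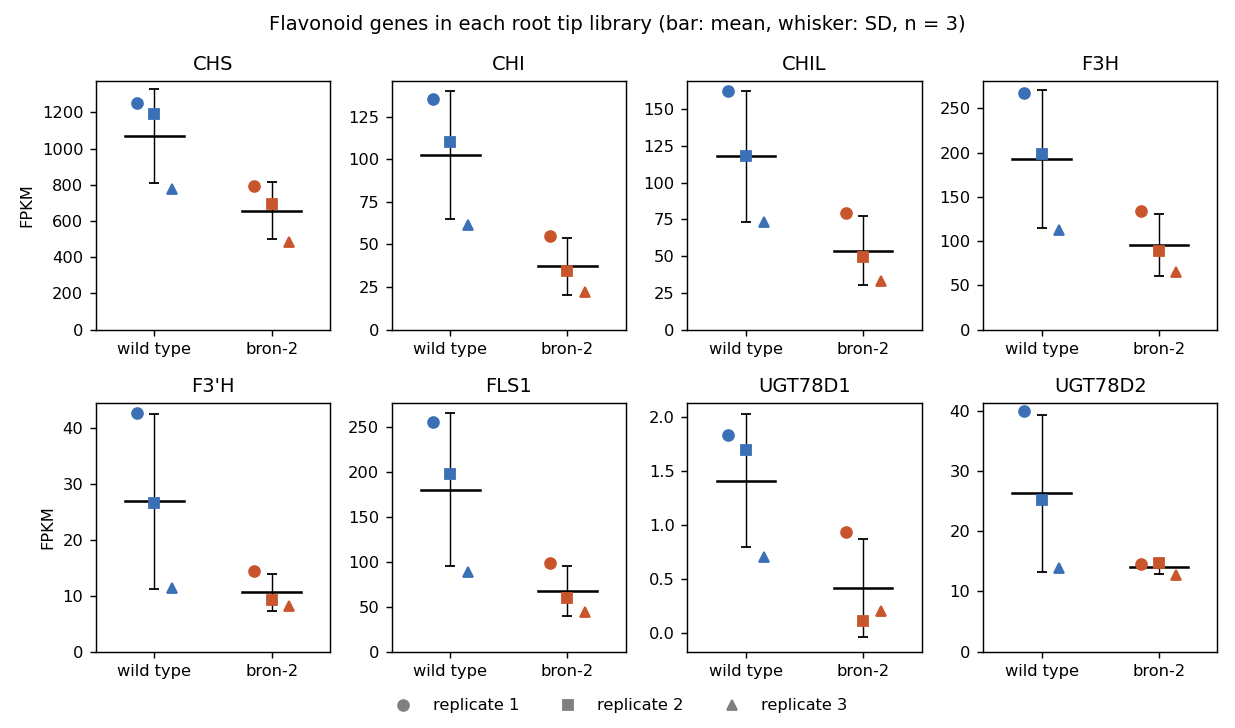
FPKM of 8 flavonoid genes in each library (y axis, its own linear scale in each panel), for the wild type in blue and *bron-2* in orange, with marker shapes for the replicate number, bars for means and whiskers for the standard deviation of 3 libraries. In *CHI* the genotypes do not overlap, and in *CHS*, *CHIL*, *F3H*, *F3'H*, *FLS1*, *UGT78D1* and *UGT78D2* the highest *bron-2* library is above the lowest wild type library.

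Of the 7 tested genes, 7 were lower in *bron-2* by limma's unadjusted p-value of 0.05, a cutoff that the study set for another tool, where 5.76% of all tested genes were lower by that rule. None of the 7 was higher, where 4.03% of all genes were. At an adjusted p-value under 0.05, 0 of 7 passed by limma, where 0.0818% of all genes did. Because the genes were selected on this contrast, nothing is read from these counts. They also depended on single libraries: 4 of 7 passed the unadjusted threshold without wild type replicate 1, 3 without wild type replicate 2, 4 without *bron-2* replicate 2 and 1 without *bron-2* replicate 3. The median log2 difference of the 7 was -1.12, beside -0.000995 over all tested genes, and it lay between -1.44 and -0.70 when each library was left out in turn.

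Of the 7 tested genes, 6 had overlapping genotypes, and in each of the 6 *bron-2* replicate 1 was above wild type replicate 3. Groups with every *bron-2* library below every wild type library made up 8.67% of all tested genes, and 1 of the 7, *CHI*, was among them, a share near that of all genes. At its lowest and highest, *bron-2* replicate 1 was at 89.3% (*CHI*) and 128% (*F3'H*) of wild type replicate 3.

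The spread within each genotype had an order that was shared by nearly all the genes. In *CHS*, *CHI*, *CHIL*, *F3H*, *F3'H* and *FLS1* the library numbered 1 was the highest and the library numbered 3 the lowest in the wild type and in *bron-2*, a pattern held by 7.14% of all tested genes. *UGT78D2* had this order in the wild type, but in *bron-2* replicate 2 was slightly above replicate 1. With each tested gene set to 100% at its wild type mean, wild type replicates 1 to 3 had medians of 139%, 103% and 58.4% over the 7 genes, and *bron-2* replicates 1 to 3 had medians of 55.4%, 41.9% and 30.2%. Wild type replicate 3 and *bron-2* replicate 1 were thus close to each other.

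The difference between replicates 1 and 3 was about as large as that between the genotypes. The median over the 7 genes of replicate 3 minus replicate 1 was -1.24 in the wild type and -1.03 in *bron-2* on the log2(FPKM + 1) scale, beside the median genotype difference of -1.12. These are unlike measures. The first is between single libraries that were mostly the highest and lowest of their genotype, and the second is between means of 3 libraries. In the wild type, replicate 3 was at 62.0% of replicate 1 for *CHS*, 45.4% for *CHI*, 45.0% for *CHIL*, 42.1% for *F3H*, 34.5% for *FLS1*, 34.9% for *UGT78D2* and 26.5% for *F3'H*. In *bron-2* the corresponding values were 61.0% for *CHS*, 40.2% for *CHI*, 41.5% for *CHIL*, 48.4% for *F3H*, 44.7% for *FLS1*, 87.5% for *UGT78D2* and 56.2% for *F3'H*. The 2 genotypes were closest in this ratio for *CHS* and farthest apart for *UGT78D2*, whose *bron-2* libraries varied less.

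When libraries of the same number were set side by side, *bron-2* was the lower in 21 of 21 comparisons of the 7 tested genes, a direction given by the choice of the genes. Of all tested genes, 18.9% were lower in *bron-2* at every number. The order of replicates together with a lower *bron-2* level at every number held for 6 of the 7, beside 2.76% of all tested genes. *CHS* in *bron-2* was at 63.6%, 58.1% and 62.7% of the wild type library numbered 1, 2 and 3. *CHI* was at 40.5%, 31.2% and 35.9% and *CHIL* at 48.8%, 41.8% and 45.0%. *F3H* in *bron-2* was at 50.0%, 44.8% and 57.6% of the wild type library of the same number. On the log2(FPKM + 1) scale these same-number differences lay between -0.78 and -0.65 for *CHS*, between -1.24 and -1.02 for *CHIL*, between -1.65 and -1.29 for *CHI* and between -1.15 and -0.79 for *F3H*.

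The other tested genes were less even over the numbers. *FLS1* was at 38.7%, 30.2% and 50.1%. *F3'H* was at 33.9%, 35% and 71.7%, and *UGT78D2* at 36.6%, 58.6% and 91.7%. In each of these the replicate 3 libraries were the closest, and *UGT78D2* of replicate 3 was at 13.9 FPKM in the wild type and at 12.8 FPKM in the mutant. The labels do not say that libraries of a number were grown or handled together, and over all genes the numbers did not pair the libraries consistently, so this is a second way of arranging the same 6 values and not a paired design.

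**Figure D3:**
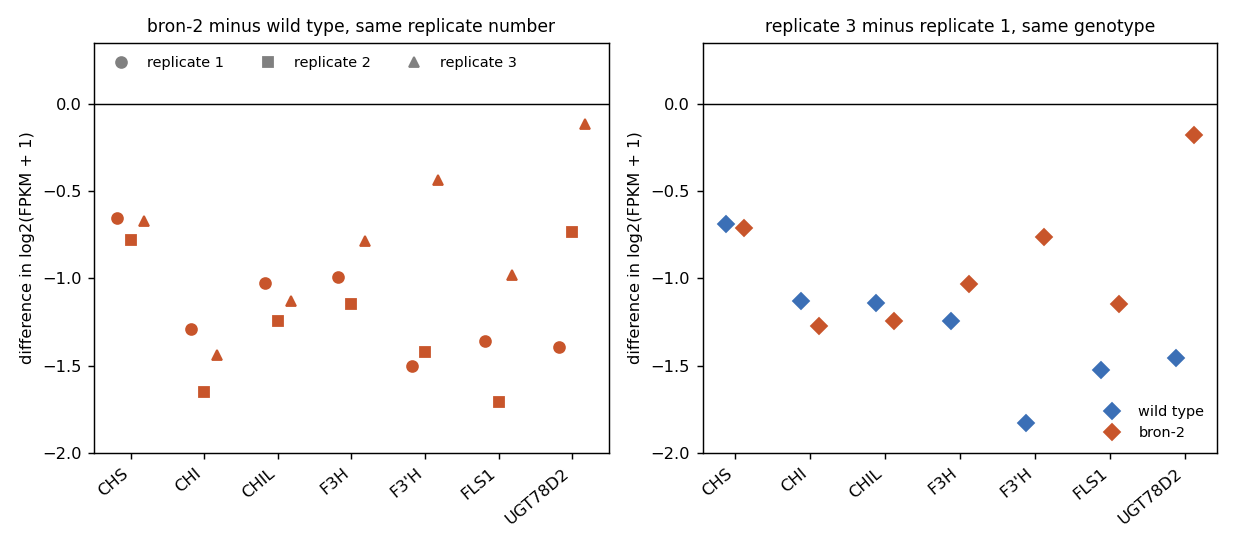
Differences in log2(FPKM + 1) for the 7 tested genes: on the left *bron-2* minus wild type at each replicate number, on the right replicate 3 minus replicate 1 within each genotype. All points are below 0, and on the left *CHS* lies between -0.78 and -0.65 whereas *F3'H* and *UGT78D2* range widely, with *UGT78D2* nearest to 0 at replicate 3.

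The sum of squares of each gene's log2(FPKM + 1) over the 6 libraries was divided into genotype, replicate number and the rest. Genotype held 57.0% for *CHS*, 68.1% for *CHI*, 57.3% for *CHIL*, 51.8% for *F3H*, 48.1% for *F3'H*, 58.6% for *FLS1* and 43.5% for *UGT78D2*. Replicate number held 42.6% for *CHS*, 31.2% for *CHI*, 42.4% for *CHIL*, 47.1% for *F3H*, 42.9% for *F3'H*, 38.6% for *FLS1* and 35.4% for *UGT78D2*. The remainder was 0.371% for *CHS*, 0.710% for *CHI*, 0.354% for *CHIL* and 1.20% for *F3H*, and it reached 2.83% for *FLS1*, 9.05% for *F3'H* and 21.1% for *UGT78D2*.

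Over all tested genes the median shares were 17.1% for genotype, 41.4% for replicate number and 26.1% for the rest. There are 3 replicate numbers and 2 genotypes, so random spread alone gives replicate number the larger share. These shares of all genes therefore do not measure an effect of replicate number or of genotype. The median share of replicate number among the 7 genes, 42.4%, was thus close to that of all genes, while the median of the rest was 1.20%. The shares of a gene divide 1 total, so the large genotype share of the 7 genes left less for replicate number. By medians, what genotype left was 42.4% replicate number and 1.20% rest in the 7 genes. In all genes these were 41.4% and 26.1%. The standard deviation over the 6 libraries was 0.51 to 0.97 on the log2 scale for the 7 genes and 0.16 for the median gene, so the share of replicate number was a large difference in level here. The genotype share follows from the choice of the genes and is not a result about them.

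**Figure D4:**
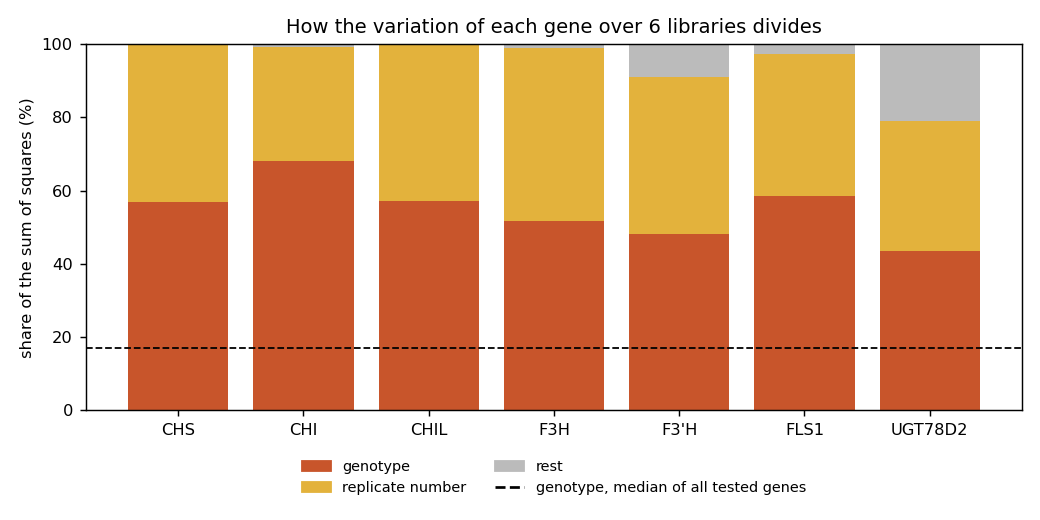
Share of the sum of squares of log2(FPKM + 1) over 6 libraries (y axis, %) that goes with genotype, with replicate number and with neither, for the 7 tested genes. Genotype and replicate number together leave under 3% for *CHS*, *CHI*, *CHIL*, *F3H* and *FLS1*, and 21.1% for *UGT78D2*, and the dashed line at 17.1% is the median genotype share of all tested genes.

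The genes did not vary in fixed proportion. The ratio of *CHS* to *CHI* was 9.23, 10.8 and 12.6 across wild type replicates 1 to 3 and 14.5, 20.1 and 22.0 across *bron-2* replicates 1 to 3, and the genotypes did not overlap. Within each genotype this ratio also rose from replicate 1 to replicate 3. The ratio of *CHI* to *CHIL* was 0.834, 0.933 and 0.841 in the wild type and 0.692, 0.697 and 0.672 in *bron-2*. These libraries again fell into separate ranges, narrow within each genotype.

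The ratio of *F3H* to *FLS1* was 1.05, 1.01 and 1.28 across wild type replicates 1 to 3 and 1.35, 1.49 and 1.47 across *bron-2* replicates 1 to 3. *FLS1*, the enzyme specific to flavonols, was thus lower against *F3H* in each *bron-2* library than in any wild type library. The ratio of *CHS* to *FLS1* was 4.89, 6.04 and 8.78 across wild type replicates 1 to 3 and 8.03, 11.6 and 10.98 across *bron-2* replicates 1 to 3, and that of *CHS* to *F3H* was 4.67, 6.0 and 6.88 against 5.94, 7.79 and 7.48. In both of these the genotypes overlapped. The genes were chosen on this contrast, so the ratios are descriptions as well. Only some of the 21 pairs of tested genes are given as ratios. How often other gene pairs separate by genotype was not computed, so nothing particular to these pairs is read from the separation. The ratio of *FLS1* to *F3'H* stayed between 5.45 and 7.81 with overlapping genotypes. The ratio of *UGT78D2* to *UGT78D1* ranged from 14.9 to 136, the high end set by the near-zero *UGT78D1* level of *bron-2* replicate 2. Over the 21 pairs of tested genes, Pearson's r of log2(FPKM + 1) across the 6 libraries was 0.860 to 0.995, and 0.744 to 0.994 after the mean of each genotype was taken off. The points of every pair share the same libraries, and these values are descriptions.

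Of the steps before *CHS*, a CoA ligase gene and an ammonia-lyase gene passed the unadjusted threshold. Of 9 phenylpropanoid entry genes, which encode phenylalanine ammonia-lyases, cinnamate 4-hydroxylase and CoA ligases, 8 were tested, 2 fell in *bron-2* at the unadjusted threshold, 0 rose and 0 passed the adjusted threshold. Of all tested genes, 5.76% fell and 4.03% rose at the unadjusted threshold. The list was written with earlier results of these data known. The median log2 difference of the entry genes was -0.08, beside -0.000995 for all genes. The number that fell was 1 without wild type replicate 1, without wild type replicate 2 or without *bron-2* replicate 3.

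*4CL3* (AT1G65060, chr1:24167202-24171635, minus strand), the 4-coumarate CoA ligase gene associated with flavonoids, was at 64.6, 42.6 and 24.8 FPKM across wild type replicates 1 to 3 and at 25.9, 14.1 and 10.4 FPKM across *bron-2* replicates 1 to 3. Its log2 difference was -1.33 (standard error 0.39, limma's Benjamini-Hochberg adjusted p = 0.357). It passed the unadjusted threshold in 13 of 13 alternative fits, with adjusted p-values from 0.0175 to 0.781, of which the lowest, from the fit with the replicate number as a block, passed the adjusted threshold, and the groups overlapped through *bron-2* replicate 1 and wild type replicate 3 as in the core genes. *4CL1*, whose product serves mainly lignin, was at 177 to 206 FPKM in the wild type and at 183 to 205 FPKM in *bron-2*, with a log2 difference of 0.01 (standard error 0.09).

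*PAL1* (AT2G37040), a phenylalanine ammonia-lyase gene, was at 371, 360 and 261 FPKM across wild type replicates 1 to 3 and at 251, 255 and 230 FPKM across *bron-2* replicates 1 to 3. The groups did not overlap, and the log2 difference was -0.41 (standard error 0.14, limma's Benjamini-Hochberg adjusted p = 0.396). *PAL1* missed the unadjusted threshold without wild type replicate 1 (log2 difference -0.32), without wild type replicate 2 (-0.34) and without *bron-2* replicate 3 (-0.37). *C4H*, for cinnamate 4-hydroxylase, was at 344 to 440 FPKM over all 6 libraries, with a log2 difference of -0.18 (limma's adjusted p = 0.552).

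Of 27 other flavonoid enzymes, transporters and fatty-acid-binding relatives of *CHI*, 15 were tested, 2 fell at the unadjusted threshold, 0 rose and 0 passed the adjusted threshold. Of all tested genes, 5.76% fell and 4.03% rose at the unadjusted threshold, and this list too was written with earlier results known. The median log2 difference of the list was 0.01. The 2 genes that fell were *UGT89C1*, for a flavonol rhamnosyltransferase, and *RHM1*, for a rhamnose synthase, and no pathway is read from them. The number that fell was 1 without wild type replicate 1, without *bron-2* replicate 2 or without *bron-2* replicate 3.

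*UGT89C1* (AT1G06000, chr1:1820308-1821894, minus strand), the flavonol 7-O-rhamnosyltransferase gene, was at 74.0, 67.1 and 40.7 FPKM across wild type replicates 1 to 3 and at 39.2, 33.8 and 28.7 FPKM across *bron-2* replicates 1 to 3. The groups did not overlap, and the log2 difference was -0.79 (standard error 0.22, limma's Benjamini-Hochberg adjusted p = 0.330). It passed the unadjusted threshold in 13 of 13 alternative fits, with adjusted p-values from 0.0638 to 0.781. AT1G06002, a lncRNA gene on the opposite strand that overlaps it, was at 64.7, 55.2 and 31.5 FPKM across the wild type libraries and at 38.8, 32.4 and 26.9 FPKM across those of *bron-2*. Strand-specific counting is not stated, so reads of this pair cannot be told apart.

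*RHM1* (AT1G78570, chr1:29549540-29552438, plus strand) encodes a rhamnose synthase, which supplies the UDP-rhamnose used by these transferases. It was at 325, 262 and 187 FPKM across wild type replicates 1 to 3 and at 217, 174 and 134 FPKM across *bron-2* replicates 1 to 3. The log2 difference was -0.55 (standard error 0.23, limma's Benjamini-Hochberg adjusted p = 0.498), and it passed the unadjusted threshold in 5 of 13 alternative fits, with adjusted p-values from 0.0728 to 0.822. It missed that threshold without wild type replicate 1 (-0.36), wild type replicate 2 (-0.52), *bron-2* replicate 2 (-0.56) or *bron-2* replicate 3 (-0.37). The overlapping gene AT1G78580 was at 2.00 to 3.33 FPKM. *OMT1*, which encodes a methyltransferase of quercetin and of lignin precursors, was at 364 to 406 FPKM in the wild type and at 359 to 410 FPKM in *bron-2*, with a log2 difference of 0.02 (limma's adjusted p = 0.963). *UGT78D3*, for a flavonol arabinosyltransferase, was listed at 0.0799 FPKM in wild type replicate 2 and at 0 elsewhere.

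**Figure D5:**
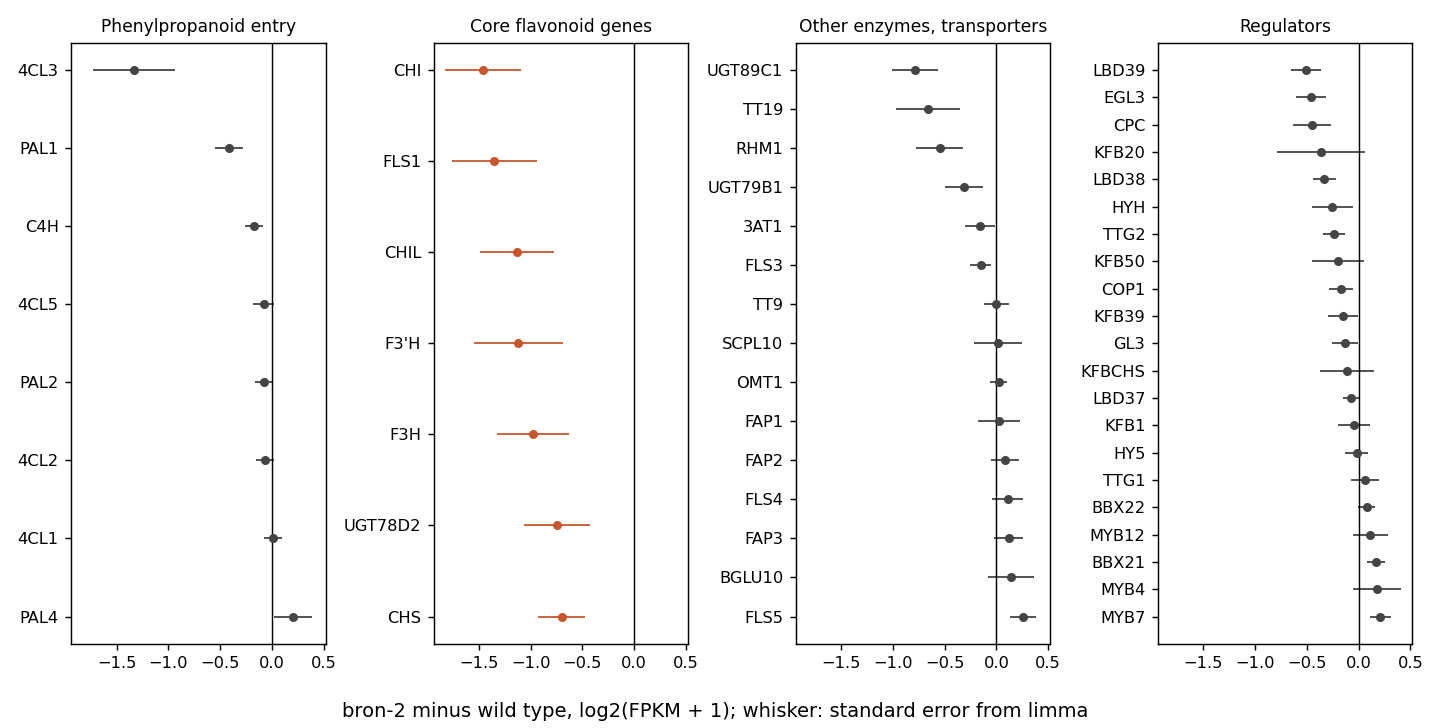
Difference in log2(FPKM + 1), *bron-2* minus wild type (x axis), for every tested gene of the entry steps, the core genes, the other enzymes and transporters, and the regulators, with whiskers for the standard error from limma. The 7 core genes lie between -1.46 and -0.70, *4CL3* and *UGT89C1* lie at -1.33 and -0.79, and the regulators lie between -0.51 and 0.21.

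The tested regulators had log2 differences from -0.51 to 0.21. Of 34 regulator genes 21 were tested, 4 fell at the unadjusted threshold, 0 rose and 0 passed the adjusted threshold. Of all tested genes, 5.76% fell and 4.03% rose at the unadjusted threshold, and the regulator list was written with earlier results known. The median log2 difference of the regulators was -0.13. The number that fell was 2 without *bron-2* replicate 2, and 3 regulators rose when wild type replicate 1 was left out. Without wild type replicate 1, 1652 of all tested genes passed the unadjusted threshold in either direction. The share that rose in that fit is not given here, so nothing is read from the 3. *MYB12* (AT2G47460), the flavonol activator of roots, was at 10.9, 7.0 and 6.84 FPKM across wild type replicates 1 to 3 and at 8.61, 9.31 and 8.52 FPKM across *bron-2* replicates 1 to 3. All *bron-2* libraries lay within the wild type range, and the log2 difference was 0.11 (standard error 0.17, limma's adjusted p = 0.870). Without wild type replicate 1 the difference was 0.31 (limma's unadjusted p = 0.0237, adjusted p = 0.416), so *MYB12* was among the 3 regulators that rose in that fit. It passed the unadjusted threshold in 1 of 13 alternative fits, with adjusted p-values from 0.416 to 0.998.

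The paralogs of *MYB12* were at the bottom of the scale, with *MYB11* listed at 0 in 6 of 6 libraries and *MYB111* at 0.0510 FPKM in wild type replicate 3 and at 0 elsewhere. *HY5*, a bZIP activator of light-induced flavonoid genes, was at 29.2 to 36.4 FPKM in the wild type and at 29.1 to 34.8 FPKM in *bron-2*, with a log2 difference of -0.02 (limma's adjusted p = 0.977). Neither *MYB12* nor *HY5* was highest in replicate 1 and lowest in replicate 3 of both genotypes. *MYB12* had that order in the wild type, as *UGT78D2* did, and in *bron-2* replicate 2 was its highest and replicate 3 its lowest library. Activity of the proteins was not measured here.

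The 4 regulators that fell have other known roles. *EGL3*, a bHLH partner of anthocyanin MYB factors and of epidermal patterning, was at 3.13 to 4.40 FPKM in the wild type and at 2.13 to 2.81 FPKM in *bron-2* (log2 difference -0.46, limma's adjusted p = 0.378). *LBD38* and *LBD39*, nitrogen-responsive repressors of anthocyanin synthesis, had log2 differences of -0.33 (limma's adjusted p = 0.400) and -0.51 (limma's adjusted p = 0.330). *CPC*, a small MYB protein of root hair patterning that also restrains anthocyanin synthesis, had overlapping groups and a log2 difference of -0.45 (limma's adjusted p = 0.492), and it passed the unadjusted threshold in 6 of 13 alternative fits. *CPC* missed that threshold without wild type replicate 1 (-0.30), wild type replicate 2 (-0.44), *bron-2* replicate 1 (-0.45) or *bron-2* replicate 2 (-0.33). *LBD38* missed it without *bron-2* replicate 2 (-0.32), and its difference was -0.21 without wild type replicate 2.

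Genes outside the 10 with the most similar pattern were ranked by Pearson's r between their log2(FPKM + 1) and the mean standardized profile of the 7 tested genes over the 6 libraries. Among 982 genes with a standard deviation of at least 0.41, 17 had an r of at least 0.95, 42 an r of at least 0.9 and 44 an r of -0.9 or below. The highest were *SAHH2* (r = 0.992), *4CL3* (r = 0.989), *UGT89C1* (r = 0.989), *RHM1* (r = 0.988), AT1G24735 (r = 0.986), *NPQ4* (r = 0.986), *EXPA12* (r = 0.981), AT1G06002 (r = 0.979), AT1G04770 (r = 0.977) and *APR3* (r = 0.976). The list thus contains the 3 pathway genes *4CL3*, *UGT89C1* and *RHM1* beside other genes. AT1G06002 overlaps *UGT89C1* on the opposite strand, and reads of this pair cannot be told apart, so these entries may not be separate. These correlations rest on 6 libraries that all genes share, and they carry no p-value.

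*SAHH2* (AT3G23810), a S-adenosylhomocysteine hydrolase gene of the methylation cycle, was at 877, 738 and 453 FPKM across wild type replicates 1 to 3 and at 522, 416 and 294 FPKM across *bron-2* replicates 1 to 3. *APR3* (AT4G21990), for an adenylylsulfate reductase of sulfate assimilation, was at 52.3, 47.4 and 25.9 FPKM across the wild type libraries and at 32.3, 26.8 and 17.6 FPKM across those of *bron-2*. *NPQ4* (AT1G44575), for the photoprotective protein PsbS, was at 42.3, 33.0 and 23.3 FPKM across the wild type libraries and at 19.8, 17.0 and 13.5 FPKM across those of *bron-2*. Each had the order of the core genes, with replicate 1 the highest and replicate 3 the lowest in both genotypes.

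After the mean of each genotype was taken off, so that only the spread within genotypes remained, the highest were *RHM1* (r = 0.993), *NPQ4* (r = 0.992), *EXPA12* (r = 0.992), an expansin gene, *SAHH2* (r = 0.992) and AT1G04770 (r = 0.989). In that ranking 30 of 982 genes reached 0.95, 57 reached 0.9 and 93 were at -0.9 or below. *RHM1*, *NPQ4*, *EXPA12*, *SAHH2* and AT1G04770 stood among the highest 10 genes by the whole profile as well.

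Markers of root tissues were examined beside these results. The summed FPKM of 6 endodermis markers was 1666, 2268 and 2642 across wild type replicates 1 to 3 and 2351, 2667 and 3028 across *bron-2* replicates 1 to 3, so that it was lowest in replicate 1 and highest in replicate 3 of each genotype, opposite to the flavonoid genes. Of these 6 markers, 5 had a higher mean in *bron-2*, and 1, *CASP2*, rose at the unadjusted threshold (limma's adjusted p = 0.508). The summed level of 8 root hair markers was 3620 to 3858 FPKM in the wild type and 3254 to 4390 FPKM in *bron-2*, and 0 of 8 passed the unadjusted threshold. In *bron-2* this sum was 4390, 3624 and 3254 FPKM in libraries 1, 2 and 3, and 4 of the 8 markers (*COBL9*, *PRP1*, *RSL4* and *RHD2*) were highest in replicate 1 and lowest in replicate 3 of both genotypes, like the flavonoid genes and 7.14% of all tested genes. *PRP1*, a proline-rich protein gene of root hairs, was at 683, 596 and 412 FPKM across wild type replicates 1 to 3 and at 675, 444 and 312 FPKM across *bron-2* replicates 1 to 3, with an r of 0.829 to the flavonoid profile and of 0.933 after the genotype means were taken off.

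Of 9 meristem markers 7 were tested and 1, *PLT2*, fell at the unadjusted threshold (limma's adjusted p = 0.465), where 5.76% of all tested genes did. The 9 markers summed to 63.1 to 69.1 FPKM in the wild type and 57.9 to 72.9 FPKM in *bron-2*. The 6 xylem markers summed to 41.8 to 54.7 FPKM and 41.0 to 59.3 FPKM, and the 4 root cap markers to 80.6 to 95.8 FPKM and 71.7 to 83.8 FPKM, in the wild type and in *bron-2*. The 5 markers of green tissue summed to 7.96 to 12.5 FPKM in the wild type and 5.24 to 8.73 FPKM in *bron-2*, with a fall of *RBCS1A* at the unadjusted threshold (limma's adjusted p = 0.461), and the sum was highest in replicate 3 of each genotype. No marker was listed at 0 in all libraries. The part of tissue composition, of depth and of replicate handling in the flavonoid levels was not tested.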

How the data were processed

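RNA from about 2 mm of root tip was sequenced in 3 wild type and 3 *bron-2* libraries. The authors mapped single-end reads to TAIR10 with Cufflinks and deposited FPKM values, normalized for transcript length and library size. The Cufflinks version, the annotation, strand use and the treatment of multiply mapping reads are not given in the sources used here. FPKM gives no read numbers, so no counting intervals were made, and relative depth came from the steps between values under 0.2 FPKM.

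Genotypes were compared on log2(FPKM + 1) over 17107 genes whose mean reached 1 FPKM, with limma 3.58.1 in R 4.3.3 (lmFit, eBayes with trend, two-sided), with Benjamini-Hochberg adjustment. This scale understates the change of low genes. FPKM are not counts, so PoissonSeq, which the authors used, was not run, and its unadjusted threshold of 0.05 was applied to limma's p-values. The 10 genes and all lists were chosen with earlier results of these data known. Named were the 10 genes, list genes past the unadjusted threshold, *MYB12*, *MYB11*, *MYB111*, *HY5*, *UGT78D3*, *UGT89C1*, *RHM1* and *OMT1* whatever their values, *BRON*, and the genes most similar in profile; *4CL1*, *C4H*, *FLS5* and the markers *PLT2*, *PRP1*, *COBL9*, *RSL4*, *RHD2*, *CASP2* and *RBCS1A* were added after their values were seen. The fit was tested on simulated data. Each library was left out in turn, and the other alternatives were the replicate block, quantile normalization, median log ratio scaling, eBayes with no trend, a pseudocount of 0.1, a minimum mean of 5 FPKM and no minimum. Promoters were read from the TAIR10.1 reference by locus, since the deposited values carry no coordinates; 32826 of 33560 identifiers were found in its annotation.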

Additional observations from a re-analysis of the deposited data

How the results depend on the processing

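Leaving out each library gave 1 to 7 core genes lower at the unadjusted threshold, against 7 with all libraries. Over all genes it gave 1053 to 2289 calls (1674 with all libraries) at the unadjusted and 8 to 31 (14 with all) at the adjusted threshold, and a mean of at least 5 FPKM gave 7 at the adjusted one. The fewest unadjusted calls came without *bron-2* replicate 2 and the most adjusted calls without wild type replicate 3. For other enzymes and transporters, 1 fell with no filter, with median log ratio scaling, with quantile normalization and with eBayes without the trend, and leaving out libraries gave 1 to 3 that fell and 0 to 1 that rose. It gave 1 to 3 entry genes that fell, 2 to 6 regulators that fell and 0 to 3 that rose. The shares of all genes that fell or rose in each of these fits are not given here, so nothing is read from the list counts. The log2 difference ranged from -0.028 to 0.072 for *OMT1* and from -0.085 to 0.073 for *HY5* when libraries were left out. The causes were not tested.

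The replicate numbers were not treated as a pairing. After the genotype means were taken off, libraries numbered 1, 2 and 3 had an r across genes of 0.123, -0.0133 and 0.186 with their namesakes, and r was 0.118 between wild type replicate 2 and *bron-2* replicate 1. With the replicate block, 2253 genes passed the unadjusted and 16 the adjusted threshold. Under the block 7 core genes were lower at the unadjusted threshold and 4 of them (*CHS*, *CHI*, *CHIL* and *F3H*) at the adjusted one, where 0 passed without it. The core genes were chosen on this contrast, so nothing is read from their counts here either. In the lists, 3 entry genes fell, 3 other enzymes and transporters fell and 1 rose, and 3 regulators fell and 1 rose under the block. The shares of all genes that fell or rose under the block are not given here. The block passed more genes than the main fit, so nothing is read from these list counts. *4CL3* was the entry gene past the adjusted threshold under the block, and in none of the other 12 alternatives did a gene of the core or of these lists pass it. Depth is unknown, so values under 1 FPKM, such as *UGT78D1*, *DFR* and *UGT78D3*, are uncertain, and with 3 libraries a genotype the spread within a genotype limits every comparison.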
